A study of Mus musculus with 12 samples.

Results

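The urea cycle and the use of its products arginine and ornithine were followed through 8 genes, Cps1, Otc, Ass1, Asl, Arg1, Arg2, Nags and Odc1, which were found by gene name among the 55416 genes of the liver and intestine tables. The libraries came from male C57BL6/J mice, 8 weeks old at the start, which were injected subcutaneously every day for 8 weeks with corticosterone (CORT, the main glucocorticoid of rodents) at 40 mg/kg or with the vehicle alone (Veh, DMSO and Tween-80 in water). RNA of whole liver and whole duodenum (called intestine here, 50 mg of tissue per sample) was sequenced in 3 Veh and 3 CORT biological replicates per tissue, 12 libraries in all. Expression is given in TPM, a relative transcript abundance that accounts for transcript length, and each tissue has its own table.

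The urea cycle turns ammonia from amino acid breakdown into urea and runs as a whole in periportal hepatocytes. Its entry steps lie in mitochondria, where NAGS makes the activator of CPS1, CPS1 makes carbamoyl phosphate and OTC joins that to ornithine to give citrulline, while ASS1, ASL and arginase (ARG1) finish the cycle in the cytosol. Enterocytes hold the mitochondrial steps and release citrulline, the mitochondrial arginase ARG2 splits arginine outside the liver, and ODC1 turns ornithine into putrescine, the rate-limiting start of polyamine synthesis. Glucocorticoids are known inducers of urea cycle genes in hepatocytes.

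The tissues carried their labels' markers. The 12 hepatocyte markers summed to 136500 to 166500 TPM in liver and to at most 55.5 TPM in intestine. Of the 13 enterocyte markers, 8 (Alpi, Sis and Lct among them) were below 1 TPM in every liver library. The list still summed to 292 to 414 TPM in Veh and 771 to 4147 TPM in CORT livers. In the CORT livers this was mostly through Apoa4, a lipoprotein gene that hepatocytes also express (555 to 3840 TPM). In the Veh livers Apoa4 was at 76.2 to 172 TPM, and other markers of the list also contributed. Fkbp5, a glucocorticoid-induced gene, was higher with CORT in liver (log2 fold change 4.23 ± 0.32 (SE), adjusted p = 0.00178) and in intestine (4.30 ± 0.34, adjusted p = 0.0045). Totals were 983327 to 997319 TPM per library. In intestine, the 37 markers of pancreatic acinar cells, which border the duodenum, summed to 47130 TPM in Veh2 and 38260 TPM in Veh3, against 695 TPM in Veh1 and 705 to 966 TPM with CORT, so the genes called in intestine are also given without the acinar genes and with Veh1 as the lone control, taken to vary like the CORT group.

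In Veh tissue, liver held transcripts of every step of the cycle, while intestine held mainly those of the mitochondrial steps and Arg2, with Asl and Ass1 at lower levels and Arg1 near 1 TPM. In liver the mean was 2413 ± 640 TPM (SD, n = 3) for Ass1, 1161 ± 182 for Arg1, 713 ± 83.8 for Cps1, 406 ± 93.2 for Asl and 191 ± 6.75 for Otc, and no neighbours in this order overlapped. Nags (49.8 ± 7.97 TPM) and Odc1 (33.1 ± 10.5 TPM) followed with overlapping libraries, and Arg2 stood at 0.103 ± 0.110 TPM. In intestine the order was Arg2 (712 ± 26.1 TPM), Cps1 (216 ± 4.999), Odc1 (91.0 ± 13.7), Otc (63.7 ± 10.95), Nags (41.8 ± 6.24), Asl (21.8 ± 0.498), Ass1 (7.33 ± 0.867) and Arg1 (0.95 ± 0.515), again with no overlap between neighbours.

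The 2 arginases were thus placed in opposite tissues. Arg1, the cytosolic arginase, was 1222 times higher in Veh liver than in Veh intestine, and Arg2, the mitochondrial arginase, was 6887 times higher in Veh intestine, although both ratios rest on a mean of under 1 TPM in the lower tissue. Ass1 and Asl, which make arginine from citrulline, were 329 and 18.6 times higher in liver, whereas Cps1 and Otc, which make citrulline, were only 3.31 and 3.00 times higher there. Odc1 was 2.75 times higher in intestine, and Nags overlapped between the tissues. Of the 8 genes, 7 did not overlap between Veh liver and Veh intestine, against 76.0% of the 14806 genes tested in the joint fit. The tables were deposited separately, so these levels are side by side and were not tested. In whole tissue, fewer cells of a type and less RNA per cell cannot be told apart.

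**Figure D1:**
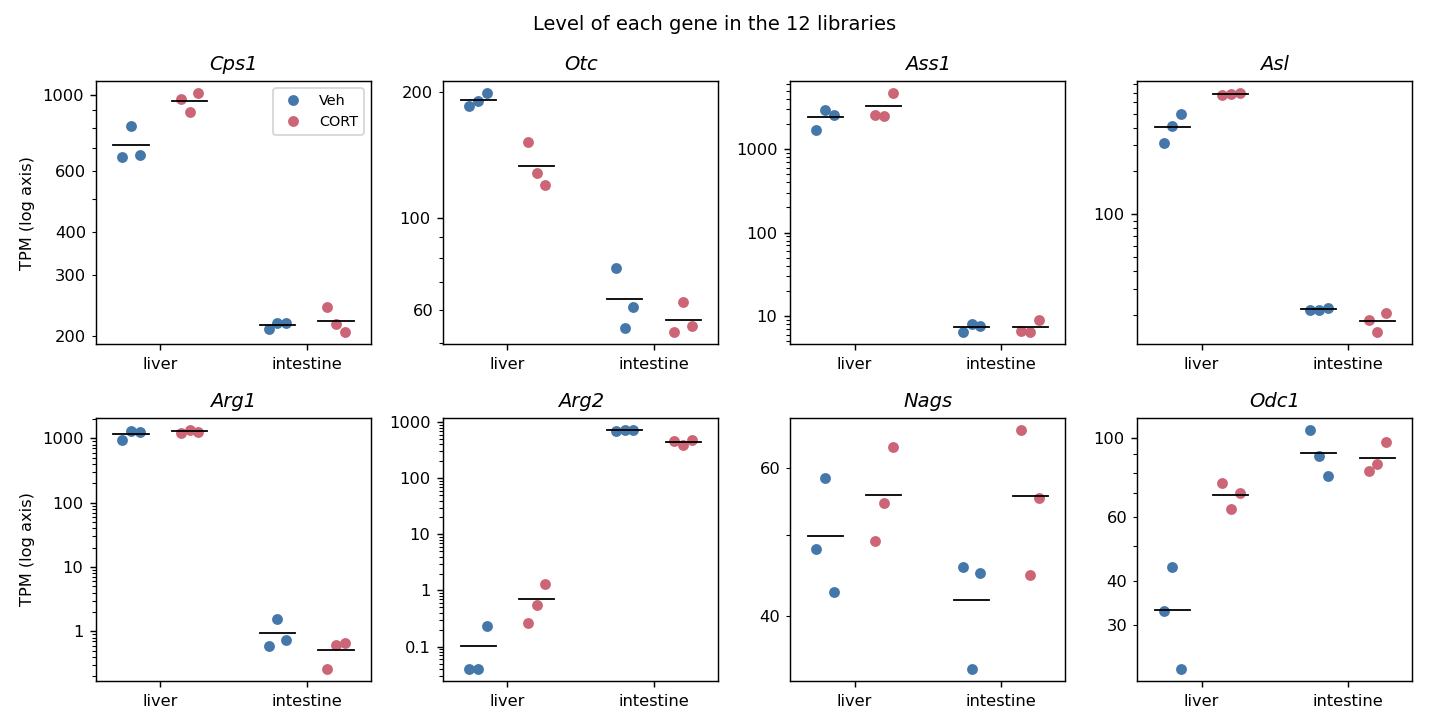
TPM on a log axis for each of the 8 genes in the 12 libraries, with Veh in blue, CORT in red and a black line at the mean of 3 libraries; the axis range differs between genes. Arg1 averages 1161 TPM in Veh liver and 0.95 TPM in Veh intestine, and Arg2 0.103 and 712 TPM, while the groups stand apart within liver for Cps1, Otc, Asl, Odc1 and the low Arg2 and within intestine for Arg2 and Asl.

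With CORT, the liver had more Odc1 transcript, and none of its urea cycle genes was called. Of the 8 genes 7 were tested in liver, and 1 of them, Odc1, was called higher, where 6.92% of the 11699 liver genes were called and 4.91% were called higher (575 higher and 235 lower, and 543 and 468 when libraries were scaled by the median of ratios). CORT and Veh did not overlap for 4 of the 7, Cps1, Asl and Odc1 being above and Otc below, against 32.2% of all tested genes. The median log2 fold change of the 7 was 0.40, against 0.078 over all tested genes.

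Odc1 (ENSMUSG00000011179) was at 32.9, 43.8 and 22.7 TPM in the Veh livers and at 74.8, 63.2 and 70.3 TPM in the CORT livers. Every CORT liver thus lay above every Veh liver, with less spread among the CORT livers. The mean rose from 33.1 ± 10.5 to 69.4 ± 5.83 TPM (SD, n = 3 each), a 2.10-fold change and a log2 fold change of 1.09 ± 0.23 (SE, adjusted p = 0.0393, limma). The call rested on few libraries. It was kept without Veh2 (adjusted p = 0.0254) and lost without any one of Veh1, Veh3, CORT1, CORT2 or CORT3 (adjusted p between 0.0786 and 0.128), while the log2 fold change stayed between 0.85 and 1.31.

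Oaz1, which encodes the antizyme that sends ODC to degradation, was not called. It was at 549 ± 57.9 TPM in Veh and 535 ± 31.4 TPM in CORT livers (log2 fold change -0.03 ± 0.13, adjusted p = 0.896), and a pseudogene copy of it has its own row in the tables, so reads may be split between them. Odc1 TPM was 6.68, 7.19 and 4.16% of Oaz1 TPM in the Veh livers and 13.3, 11.7 and 14% in the CORT livers. This ratio, which does not depend on the scaling of a library and was chosen after the values were seen, did not overlap between the groups and is given as a description.

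Among the genes of the cycle itself, Asl, which splits argininosuccinate into arginine and fumarate, was nearest to the threshold. Its level was 312, 408 and 498 TPM in the Veh livers and 677, 682 and 696 TPM in the CORT livers. All CORT livers lay above all Veh livers and within a narrow band. The log2 fold change was 0.78 ± 0.18 with a 95% interval of 0.35 to 1.21, and the adjusted p of 0.051 missed the threshold, which a pseudocount of 0.1 turned into a call (adjusted p = 0.0471).

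Cps1, the entry enzyme of the cycle, and Otc, the step that follows it, lay on opposite sides of their controls. Cps1 was at 661, 809.5 and 669 TPM in the Veh livers and at 971, 891 and 1011 TPM in the CORT livers (log2 fold change 0.43 ± 0.14, adjusted p = 0.108). Otc was at 185, 190.1 and 199 TPM in the Veh livers and at 152, 128 and 119 TPM in the CORT livers (log2 fold change -0.53 ± 0.13, adjusted p = 0.0604). Neither gene was called, but in neither did the groups overlap. Cps1 TPM divided by Otc TPM within a library was 3.56, 4.26 and 3.37 in the Veh livers and 6.40, 6.98 and 8.47 in the CORT livers. This ratio averaged 3.73 ± 0.469 in Veh and 7.28 ± 1.07 in CORT livers, and since the genes were paired after their opposite directions were seen, it is given with no test. In intestine the same ratio was 3.46 ± 0.638 in Veh and 3.91 ± 0.568 in CORT libraries, which overlapped.

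The remaining liver genes overlapped between the groups. Ass1, which joins citrulline and aspartate, was at 1715, 2970.5 and 2553 TPM in the Veh livers and at 2544, 2507 and 4694 TPM in the CORT livers, and the CORT3 value was the highest (log2 fold change 0.40, 95% interval -0.33 to 1.13). The change was 0.10 without CORT3 and 0.17 without Veh1, the lowest library. Arg1 was at 953 to 1292 TPM in Veh and 1213 to 1364 TPM in CORT livers (0.15, 95% interval -0.22 to 0.52). Nags was at 42.8 to 58.5 TPM in Veh and 49.2 to 63.6 TPM in CORT livers (0.17, 95% interval -0.22 to 0.55). These intervals hold 0 and also changes of the size seen for Cps1, so similar levels were not shown either. Arg2 was too low in liver to be tested, at 0.04, 0.04 and 0.23 TPM in Veh and 0.26, 0.56 and 1.31 TPM in CORT livers. The CORT livers lay above the Veh livers, and CORT3, the highest, also had the highest sum of the 12 leukocyte markers (234 TPM, against 86.7 and 128 TPM in the other CORT livers and 99.7 to 149 TPM in Veh livers). The part of leukocytes in the Arg2 values was not tested.

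The 5 enzymes of the cycle, Cps1, Otc, Ass1, Asl and Arg1, together made up 0.384, 0.569 and 0.517% of all TPM in the Veh livers and 0.563, 0.564 and 0.792% in the CORT livers. These shares overlapped between the groups (exact permutation test on the summed TPM, two-sided p = 0.3). With 3 libraries per group this test cannot give a p below 0.1, so no conclusion is drawn from it. Markers of position in the lobule gave 1 call. The 10 periportal markers summed to 2625 to 3579 TPM in Veh and 2364 to 3483 TPM in CORT livers, with 1 called lower, 0 called higher and a median log2 fold change of -0.37. The 11 pericentral markers summed to 3505 to 5459 TPM in Veh and 5819 to 8698 TPM in CORT livers, which did not overlap, with 0 called and a median of 0.16. Hepatocyte marker sums were 136500 to 166500 TPM in Veh and 151700 to 154900 TPM in CORT livers. What zonation contributes to the urea cycle values was not tested.

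**Figure D2:**
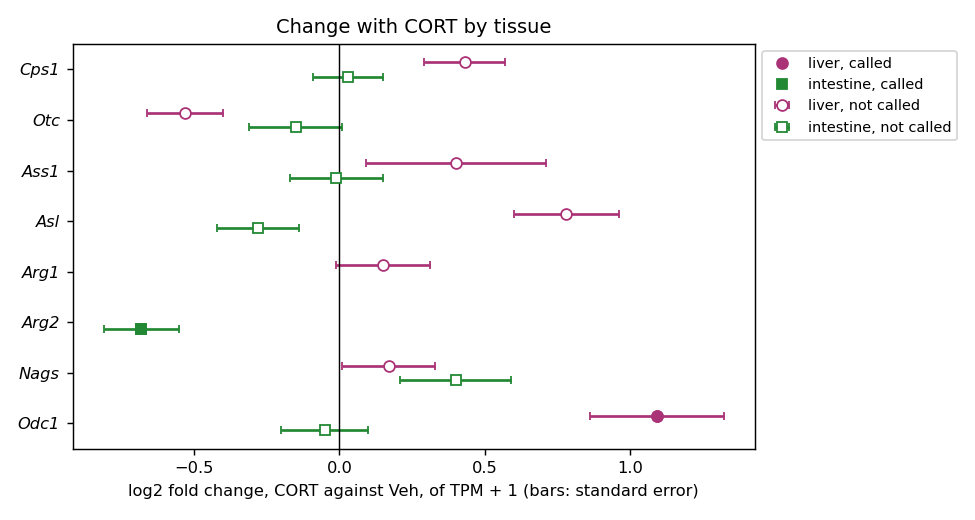
Log2 fold change of CORT against Veh for TPM + 1, with standard errors, for each gene tested in liver (circles) and intestine (squares); filled symbols are called and open symbols are not. Odc1 in liver (1.09) and Arg2 in intestine (-0.68) are the called changes, and Asl lies at 0.78 in liver and -0.28 in intestine.

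With CORT, the intestine had less Arg2 transcript, and the genes that make citrulline, Cps1 and Otc, were not called. Of the 8 genes 7 were tested in intestine, and 1, Arg2, was called lower, where 2.15% of the 13607 intestine genes were called and 0.919% were called lower. CORT and Veh did not overlap for 2 of the 7, Arg2 and Asl, both below, against 26.4% of all tested genes. The median log2 fold change of the 7 was -0.05, against -0.012 over all tested genes.

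Arg2 (ENSMUSG00000021125) was at 683, 733 and 719 TPM in the Veh intestines and at 454, 399 and 478 TPM in the CORT intestines. The groups were far apart and the Veh libraries close together, including Veh1, whose acinar markers summed to 695 TPM. The mean fell from 712 ± 26.1 to 444 ± 40.3 TPM, to 0.624 of the Veh level (log2 fold change -0.68 ± 0.13, 95% interval -0.98 to -0.38, adjusted p = 0.0494, limma). The call was narrow. It was lost without any one of the 6 libraries (adjusted p between 0.0837 and 0.181, log2 fold change between -0.74 and -0.61) and with median-of-ratios scaling (adjusted p = 0.064).

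With acinar genes removed the log2 fold change of Arg2 was -0.72 (adjusted p = 0.0391), and with Veh1 as the only control it was -0.62 (adjusted p = 0.453). Among marker sums of other cells, that of enterocytes did not overlap between the groups, and those of smooth muscle, crypts and leukocytes did. The 13 enterocyte markers summed to 21630 to 31090 TPM in Veh and 33560 to 39100 TPM in CORT intestines. Their median log2 fold change was only 0.06, with 8 of 13 above 0 and 0 of 13 called. The 7 smooth muscle markers summed to 455 to 909 TPM in Veh and 301 to 488 TPM in CORT intestines, and the 12 crypt markers to 403 to 514 and 392 to 415 TPM. The 12 leukocyte markers summed to 108 to 181 TPM in Veh and 109 to 208 TPM in CORT intestines. Their part in the Arg2 level was not tested.

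Cps1 and Otc, the enzymes behind intestinal citrulline, overlapped between the groups. Cps1 was at 209.8, 219 and 218 TPM in the Veh and 242, 217 and 205 TPM in the CORT intestines, a log2 fold change of 0.03 with a 95% interval of -0.25 to 0.32. Otc was at 75.7, 54.3 and 61.2 TPM in the Veh and 53.1, 62.7 and 54.9 TPM in the CORT intestines (-0.15, 95% interval -0.52 to 0.22). Nags was at 45.8, 34.6 and 45.0 TPM in the Veh and 66.7, 44.8 and 55.3 TPM in the CORT intestines, which overlapped only through CORT2 (0.40 ± 0.19, adjusted p = 0.309).

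Odc1 was at 105, 89.3 and 78.2 TPM in the Veh and 80.9, 84.7 and 97.6 TPM in the CORT intestines, with a log2 fold change of -0.05 and a 95% interval of -0.40 to 0.31. That interval does not reach the 1.09 measured for Odc1 in liver, which had its own 95% interval of 0.54 to 1.64. The main fit over both tissues, given below, did not call a difference for Odc1 (adjusted p = 0.058, limma). Asl was at 21.7, 21.4 and 22.4 TPM in the Veh and 18.2, 15.1 and 20.5 TPM in the CORT intestines, each CORT library being below each Veh library (-0.28 ± 0.14, adjusted p = 0.331). Ass1 overlapped (6.39 to 8.10 TPM in Veh, 6.47 to 8.94 TPM in CORT). Arg1, below the limit for testing, was at 0.59, 1.54 and 0.72 TPM in Veh and 0.26, 0.61 and 0.66 TPM in CORT intestines. Veh2, the highest, had the most acinar RNA, and Veh3, with acinar markers at 38260 TPM, had Arg1 at 0.72 TPM. The part of acinar RNA in the Arg1 values was not tested.

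Whether a gene responded differently in the 2 tissues was asked with the treatment by tissue term of a fit over all 12 libraries, which called 3.61% of 14806 genes. Both tissues gave a test for 6 of the 8 genes, and the term called 1 of these, Asl. The change of Asl in liver exceeded that in intestine by 1.06 ± 0.23 on the log2 scale (adjusted p = 0.0305), although neither tissue alone gave a call. Arg2 and Arg1 entered this fit only through the tissue where they are high, so their terms are not read as tests. For Odc1 the difference was 1.14 ± 0.29 (adjusted p = 0.058), so a difference between the tissues was not called for the gene that rose in liver, except with median-of-ratios scaling (adjusted p = 0.0335) or without liver Veh2 (adjusted p = 0.0154). Cps1 (0.40, adjusted p = 0.209), Otc (-0.38, adjusted p = 0.34), Ass1 (0.41, adjusted p = 0.602) and Nags (-0.23, adjusted p = 0.68) were not called. The Asl call was lost without any one of liver CORT1, CORT2 or CORT3 or intestine Veh2, Veh3, CORT1 or CORT2 (highest adjusted p = 0.0725) and with no filter on low values (adjusted p = 0.0531).

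**Figure D3:**
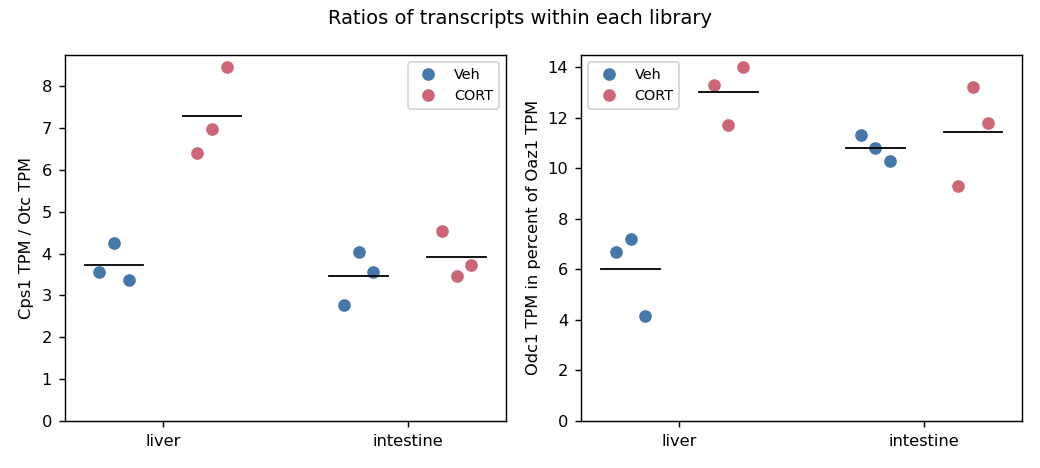
Cps1 TPM divided by Otc TPM (left) and Odc1 TPM in percent of Oaz1 TPM (right) within each library, with a black line at the mean of 3 libraries and the axes starting at 0. In liver the CORT libraries lie above the Veh libraries in both ratios (6.40 to 8.47 against 3.37 to 4.26, and 11.7 to 14% against 4.16 to 7.19%), and in intestine the groups overlap.

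The promoters of Odc1, the called gene of liver, and of Otc, the cycle gene that lay below its controls there and was added after its values were seen, are shown because they differ widely in base composition. RefSeq held the 250 bases before the start site for 4 of the 8 genes (Otc, Ass1, Nags and Odc1, build GRCm38.p6). The Odc1 stretch is chr12:17544623-17544872 and the Otc stretch chrX:10252055-10252304, both on the plus strand, with CG dinucleotides in capitals.
Odc1: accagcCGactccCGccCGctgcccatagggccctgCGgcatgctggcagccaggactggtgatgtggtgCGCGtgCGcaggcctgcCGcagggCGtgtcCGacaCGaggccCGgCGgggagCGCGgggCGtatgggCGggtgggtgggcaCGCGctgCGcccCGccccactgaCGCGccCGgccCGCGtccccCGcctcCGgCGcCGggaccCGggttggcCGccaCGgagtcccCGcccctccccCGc
Otc: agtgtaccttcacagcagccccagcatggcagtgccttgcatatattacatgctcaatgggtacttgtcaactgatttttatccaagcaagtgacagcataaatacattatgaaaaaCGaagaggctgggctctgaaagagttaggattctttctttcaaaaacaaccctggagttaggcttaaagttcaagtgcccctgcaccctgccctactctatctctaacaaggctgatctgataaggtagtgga
The Odc1 promoter had 80.0% G and C and 35 CG dinucleotides, and the Otc promoter 43.6% and 1, against medians of 52.4% and 6 over 32851 promoters. Ass1 (75.6%, 23 CG) was like Odc1, and Nags (55.6%, 11 CG) lay between. Both strands were searched for the glucocorticoid response element palindrome (found in 0.00913% of all promoters), its hexamer AGAACA (16.1%, contained in the palindrome), the E-box CACGTG (6.02%), the cyclic AMP response element TGACGTCA (1.55%), the C/EBP palindrome TTGCGCAA (0.164%), CCAAT (33.8%) and TATAAA (12.4%). The only match among the 4 genes was a CACGTG in the Ass1 promoter, 36 bases before the start site. These letters were not in the Odc1 and Otc windows, which says nothing of sites elsewhere.

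Around these 8 genes, 72 genes of 10 lists covering transport, ornithine and proline conversion, ammonia supply, other uses of arginine, polyamines and regulators were counted. In liver 58 were tested, of which 4 rose and 0 fell (6.9%, against 6.92% of all genes), and 17 did not overlap (29.3%, against 32.2%). In intestine 60 were tested, of which 3 rose and 0 fell (5.0%, against 2.15%), and 23 did not overlap (38.3%, against 26.4%). The medians of the log2 fold changes were 0.045 and -0.035. The counts of calls rest on few genes, each named below with its role.

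In liver, 2 of the 4 tested mitochondrial carriers listed for ornithine, citrulline, aspartate or glutamate were called higher and 0 lower. Of all tested liver genes, 4.91% were called higher. The median log2 fold change of the 4 carriers was 0.94, against 0.078 over all tested genes. Slc25a13, the aspartate and glutamate carrier that supplies aspartate to ASS1, was at 53.9, 63.9 and 62.5 TPM in the Veh and 122, 94.8 and 94.2 TPM in the CORT livers (0.77 ± 0.15, adjusted p = 0.0314). Slc25a22, a mitochondrial glutamate carrier, was at 81.8, 115 and 106 TPM in the Veh and 281, 219 and 178 TPM in the CORT livers (1.15 ± 0.21, adjusted p = 0.0252). All CORT livers were above all Veh livers for both. Slc25a15, the ornithine carrier without which the cycle cannot turn, is named after its values were seen because it missed the threshold narrowly, at 73.5, 67.3 and 60.5 TPM in the Veh and 136, 104 and 217 TPM in the CORT livers (1.11 ± 0.26, adjusted p = 0.0506). Slc25a13 rose in intestine too, from 17.3 ± 0.713 to 27.8 ± 2.63 TPM (0.65 ± 0.12, adjusted p = 0.0493). There 1 of 4 carriers was called, against 2.15% of all tested genes. With 1 library left out, Slc25a13 in liver stayed called only without Veh2, Slc25a22 without Veh2 or CORT3, and Slc25a13 in intestine in no such fit (highest adjusted p = 0.105, 0.0792 and 0.16). The intestine change of Slc25a13 was 0.62 with acinar genes removed (adjusted p = 0.049) and 0.63 with Veh1 alone (adjusted p = 0.437).

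Of the 8 genes for polyamine breakdown and export, Smox rose in both tissues and no other was called. SMOX is spermine oxidase, which turns spermine back into spermidine. It was at 1.58, 2.64 and 1.41 TPM in the Veh and 8.94, 4.58 and 17.4 TPM in the CORT livers (1.83 ± 0.42, adjusted p = 0.0468), and at 4.14, 4.68 and 4.95 TPM in the Veh and 14.8, 12.3 and 8.27 TPM in the CORT intestines (1.16 ± 0.21, adjusted p = 0.0446). The groups did not overlap in either tissue, and the CORT livers were spread widely. With 1 library left out, the call held only without CORT2 in liver and only without CORT3 in intestine (adjusted p otherwise up to 0.143 and 0.132). In intestine the change was 1.13 with acinar genes removed (adjusted p = 0.0467) and 1.28 with Veh1 alone (adjusted p = 0.392). The synthesis steps after ODC1 gave 0 calls among 3 tested genes in each tissue, as did the 3 genes of hypusination, the modification of Eif5a that uses spermidine. Eif5a itself was at 369 ± 28.9 and 343 ± 15.3 TPM in Veh and CORT livers (adjusted p = 0.619) and at 485 ± 16.4 and 396 ± 74.6 TPM in the intestines (adjusted p = 0.353). Antizymes and their inhibitors gave 0 calls among 3 tested in liver and 4 in intestine, with Oaz1 in intestine at 838 ± 89.5 and 780.3 ± 120.2 TPM (adjusted p = 0.747).

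Among the 11 genes of glutamine and ammonia supply, Glul was called in intestine. Glul encodes glutamine synthetase, which binds ammonia outside the periportal zone of the liver. In intestine it was at 20.4, 23.1 and 29.5 TPM in the Veh and 72.2, 51.4 and 56.4 TPM in the CORT libraries (1.27 ± 0.19, adjusted p = 0.0272). In liver it was at 335, 141 and 388 TPM in the Veh and 549, 701 and 397 TPM in the CORT libraries (1.02 ± 0.40, adjusted p = 0.169). The groups did not overlap in either tissue. In liver the spread was wider, and the highest Veh library (388 TPM) lay just under the lowest CORT library (397 TPM). The intestine call was lost without any one library (adjusted p between 0.0544 and 0.0918), and the change was 1.23 with acinar genes removed (adjusted p = 0.0294) and 1.49 with Veh1 alone (adjusted p = 0.217). Gpt, alanine aminotransferase, was at 259 ± 49.99 and 408 ± 87.2 TPM in Veh and CORT intestines (adjusted p = 0.174), the groups not overlapping. Arginine and ornithine transporters at the cell surface, the genes between ornithine and proline, and other users of arginine gave 0 calls in either tissue among 4, 7 and 5 tested genes in liver and 7, 7 and 7 in intestine.

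Of 12 regulators that bind or act on urea cycle genes, 1 was called in liver and 0 of 11 tested in intestine. Hnf4a, a nuclear receptor of hepatocyte identity, was at 145, 161 and 144 TPM in the Veh and 279, 233 and 316 TPM in the CORT livers (0.86 ± 0.15, adjusted p = 0.0211). All CORT livers lay above all Veh livers. With 1 library left out, the call held without Veh2, CORT2 or CORT3 (highest adjusted p otherwise 0.0863). Hnf4a was also expressed in intestine, at 204.1 ± 15.2 TPM in Veh and 175.8 ± 13.44 TPM in CORT libraries. Its log2 fold change there was -0.22 ± 0.12 (adjusted p = 0.396, limma).

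**Figure D4:**
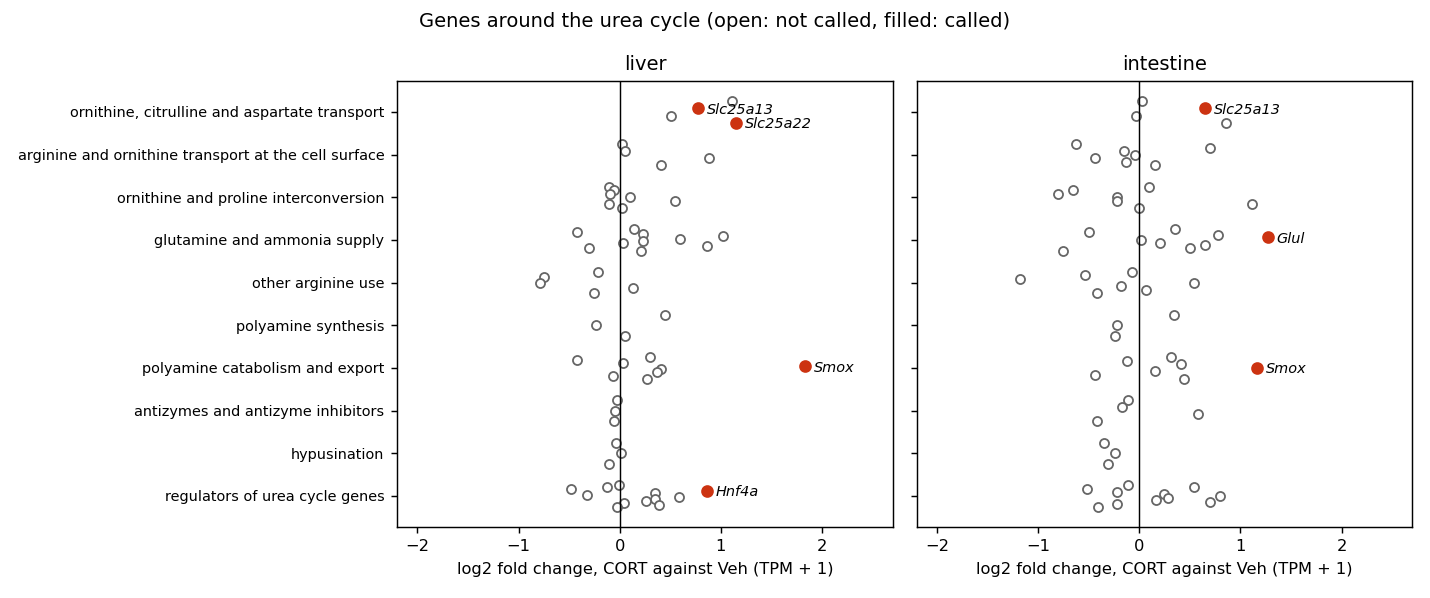
Log2 fold change of CORT against Veh (TPM + 1) for each tested gene of the 10 lists in liver (left, 58 genes) and intestine (right, 60 genes), 1 row per list; filled red points are called genes and open points are not. The called points lie to the right of 0 in both tissues, Slc25a13 and Smox among them in each, and most open points of the antizyme and hypusination lists lie at or left of 0.

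For each of the 6 genes tested in both tissues, the gene with the most similar values was sought among 10500 genes, as the smallest root mean square difference of log2(TPM + 1), centred within each tissue, over the 12 libraries. Odc1 was nearest to Pla2g12a (0.131, whose log2 fold changes were 1.00 in liver and 0.08 in intestine), Asl to Hmox2 (0.134), Cps1 to Ap3d1 (0.068), Otc to Lrpprc (0.108), Ass1 to Dok1 (0.123) and Nags to Cand1 (0.115). Each distance is the smallest over 10500 genes. That it lies below the gene's own root mean square deviation (0.178 for Cps1 to 0.444 for Odc1) is therefore no evidence of likeness. The same 12 libraries also enter every profile, so the distances are given as a description only.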

How the data were processed

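RNA was sequenced from liver and duodenum of CORT- and vehicle-treated mice, with 3 libraries per group and tissue. Per the labels, the authors used GRCm39, HISAT2, StringTie and RSEM to go from reads to abundances. Deposited were TPM for every gene of every library, a scale on which each library has nearly the same total, so read depth is unknown and no counting error or detection limit can be given. The study states an orientation mode for the alignment; strand use in the quantification is not given in the sources used here. The sample labels gave the groups and replicate numbers.

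In R 4.3.3, limma 3.58.1 (lmFit, eBayes with a trend) was fitted to each tissue separately on log2(TPM + 1), a scale that understates changes of low genes. Genes averaging 1 TPM or more in the Veh or CORT libraries were tested, with Benjamini-Hochberg adjustment over all of them. A gene was called at an adjusted p of 0.05 or less with a fold change over 1.5. A limma fit over all 12 libraries tested the treatment by tissue term. The fits were tested on simulated data. Alternatives were a pseudocount of 0.1, no filter, each library left out in turn, another scaling, a block for the replicate number, unadjusted p-values, no limit on fold change and, in the intestine, removal of acinar genes. A fit without 2 intestine libraries was added after seeing the data.

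The 8 genes and all gene lists were chosen with earlier results of these data known. Named beside them were the called genes of the pathway lists, the 3 uncalled list genes with the highest mean TPM per tissue, Fkbp5, and for each of the 8 genes the gene with the most similar values. One gene of the lists is not reported here and was left out of their counts. Other names are given as chosen after their values were seen. Promoter sequences are from RefSeq (GRCm38.p6), a build other than that of the tables.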

Additional observations from a re-analysis of the deposited data

Results flagged for a closer look

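The treatment by tissue term was called for Asl among the 6 genes tested in both tissues. Its liver change exceeded its intestine change by 1.06 on the log2 scale, the 3 CORT livers lying above the Veh livers and the 3 CORT intestines below the Veh intestines. The call was lost without any one of 7 of the 12 libraries.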

How the results depend on the processing

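In liver, 810 genes were called, against 283 with no filter on low values, 307 with the replicate block, 1808 at unadjusted p-values and 247 to 831 with 1 library left out. Of the 8 genes, 1 was called, against 2 (Asl and Odc1) with a pseudocount of 0.1 or unadjusted p-values, 0 with no filter or the replicate block and 0 to 1 with 1 library left out. In intestine, 292 genes were called, against 52, 62, 1395 and 66 to 237 in the same order, and 10 without Veh2 and Veh3, a fit chosen after seeing the data in which Fkbp5 too was not called (log2 fold change 4.32, adjusted p = 0.0566). Of the 8 genes, 1 was called, against 0 with no filter, the replicate block, median-of-ratios scaling, without Veh2 and Veh3, or with any 1 library left out. The treatment by tissue term called 534 genes, against 210 with the replicate block and 289 to 626 with 1 library left out. The fits with a library left out rest on fewer samples; the cause of the other changes was not tested.

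With the replicate block the adjusted p was 0.0844 for Odc1 in liver and 0.113 for Arg2 in intestine, and 0.0831 for the tissue difference of Asl. Same-numbered samples correlated at -0.12 to 0.038 in liver, -0.004 to 0.073 in intestine and -0.133 to 0.102 across tissues. Across tissues, differently numbered samples correlated at -0.138 to 0.215. With 3 libraries per group, such values cannot show whether liver and duodenum came from the same mice, and the labels do not say. The numbers were not taken to pair samples, and the main fit over both tissues treated the 12 libraries as independent. No filter gave adjusted p-values of 0.098 for Odc1 in liver, 0.099 for Arg2 in intestine and 0.0531 for the tissue difference of Asl. The calls of Slc25a13, Slc25a22, Smox and Hnf4a in liver and of Slc25a13, Smox and Glul in intestine were also lost with no filter (adjusted p between 0.0503 and 0.128) and with the replicate block (0.0741 to 0.132), and those of Slc25a13 and Smox in intestine with median-of-ratios scaling (0.0543 and 0.057). Over 282 values of the 8 genes under the alternatives, 9 changed sign, all of Ass1, Cps1 or Odc1 in intestine, whose changes were within 0.05 of 0, as did 5 values of Slc25a15 in intestine. Depth is unknown, so no counting error can be given for genes near 0 TPM, such as Arg2 in liver.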
